A study of Homo sapiens with 12 samples.

Results

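Tumour necrosis factor (TNF), the lymphotoxins, interleukin 1 (IL1) and their receptors were followed across 4 lines made from the HER2-positive breast cancer line SKBR-3. The genes were taken by name: the ligands TNF, LTA, LTB, IL1A, IL1B and IL18 and the receptor chains TNFRSF1A, TNFRSF1B, IL1R1 and IL1RAP. These are 10 genes of the 19775 named on the array, read by 15 of the 54613 probe sets tested. A probe set is a group of short probes whose signals are combined into 1 value, and 5 of the genes had 1 probe set and 5 had 2.

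SKR6CA cells are SKR6 cells that received, by retrovirus, a constitutively active p65, the NF-kB subunit encoded by RELA, and were selected with puromycin. SKR6-Vector cells are SKR6 cells that carry the empty retroviral vector pQCXIP and were selected in the same way. SKR6LR cells came from months of growth of SKR6 in rising doses of lapatinib (0.2 to 5 µM), a drug that blocks the HER2 and EGFR kinases. SKR6 cells, the parent of the other lines, are SKBR-3 cells with raised HER2. Each line had 3 biological replicates and 1 array per replicate, 12 arrays in all, with 48 hours of culture in RPMI medium with 10% serum before the RNA was taken. The growth protocol names cells written SKLR as kept in 0.2 µM lapatinib, so for SKR6LR the long selection and any drug present in the culture cannot be told apart. The labels do not say whether a line was 1 clone or a pool.

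TNF and the lymphotoxins are related ligands that form trimers and act on cells through TNF receptors. TNFRSF1A is found on most cells and carries a death domain, whereas TNFRSF1B lacks one and is found mainly on immune and endothelial cells. IL1A and IL1B bind the same receptor, IL1R1, which signals only after it has joined the accessory chain IL1RAP. Both receptor systems activate NF-kB, and TNF, IL1A and IL1B are themselves textbook NF-kB targets. IL18 is an IL1 family cytokine that epithelial cells keep as an inactive precursor.

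TNF, LTA and LTB are neighbours on chromosome 6, within 21816 bases of each other, and IL1A and IL1B lie 45257 bases apart on chromosome 2 (RefSeq, GRCh38.p14). Promoter windows from RefSeq were held for 9 of the 10 genes, with none for IL18. The 250 bases before the start site are shown for the neighbours TNF, which rose in SKR6CA and SKR6LR, and LTB, whose brighter probe set was called in neither, and for both IL1 ligands. They are written 5′ to 3′ on the strand of the gene, and the capitals mark the letters GGGNNNNNCC (a loose NF-kB core), TGANTCA (the AP-1 site) and TATAAA (the TATA box), searched on both strands. The windows lie at chr6:31575315-31575564 (plus strand) for TNF, chr6:31582426-31582675 (minus strand) for LTB, chr2:112784494-112784743 (minus strand) for IL1A and chr2:112836780-112837029 (minus strand) for IL1B.
TNF: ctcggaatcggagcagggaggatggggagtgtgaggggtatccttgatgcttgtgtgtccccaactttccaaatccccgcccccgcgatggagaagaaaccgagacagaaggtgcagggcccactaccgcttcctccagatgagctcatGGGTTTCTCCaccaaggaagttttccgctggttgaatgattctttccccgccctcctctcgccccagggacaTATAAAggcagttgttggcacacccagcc
LTB: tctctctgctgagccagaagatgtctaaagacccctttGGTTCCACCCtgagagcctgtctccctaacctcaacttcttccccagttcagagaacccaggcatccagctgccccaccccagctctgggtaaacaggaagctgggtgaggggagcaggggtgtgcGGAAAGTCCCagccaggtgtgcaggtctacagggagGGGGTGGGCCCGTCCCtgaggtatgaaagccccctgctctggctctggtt
IL1A: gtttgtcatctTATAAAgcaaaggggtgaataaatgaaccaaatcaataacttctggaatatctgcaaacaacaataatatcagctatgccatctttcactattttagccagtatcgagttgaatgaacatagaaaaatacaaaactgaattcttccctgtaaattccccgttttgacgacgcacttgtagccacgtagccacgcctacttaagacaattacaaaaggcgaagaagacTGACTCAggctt
IL1B: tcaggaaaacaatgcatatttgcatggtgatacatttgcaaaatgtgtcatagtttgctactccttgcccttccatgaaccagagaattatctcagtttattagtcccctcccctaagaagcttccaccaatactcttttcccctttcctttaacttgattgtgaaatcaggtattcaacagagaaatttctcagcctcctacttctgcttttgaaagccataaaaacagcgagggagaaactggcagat
In the TNF window the loose core GGGTTTCTCC began 101 bases before the start and TATAAA 29 bases before it. The LTB window held several overlapping loose cores, and GGAAAGTCCC, which began 86 bases before the start, also matched the stricter classical NF-kB consensus on the reverse strand. The IL1A window shown held TGACTCA 12 bases before the start and TATAAA 239 bases before it. A second annotated IL1A window, not shown, held TGACTCA 105 bases and TGAGTCA 55 bases before its own start, and no TATAAA. None of the letters searched were in the IL1B window. For LTA, the second annotated window held GGGGCTTCCC 103 bases before its start, a match to the stricter consensus. Loose cores also lay in windows of TNFRSF1B, IL1R1 and IL1RAP. Of the 15 windows of the members, some of which overlap, 8 held the loose core, 3 the stricter consensus, 2 TGANTCA and 4 TATAAA. Of all 35116 promoter windows, 54.4% held the loose core, 5.2% the stricter consensus, 6.6% TGANTCA and 10.7% TATAAA.

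All values are the deposited log2 values, and 1 log2 unit is a doubling. Array medians were 5.74 to 5.77, and the number of arrays limits the precision. Over all genes, SKR6LR arrays correlated with arrays of the other lines at 0.914 to 0.933, against 0.988 to 0.990 between the 3 other lines. The spread between replicates was wider in SKR6LR (SD 0.205 over all probe sets) than in SKR6CA (0.118), SKR6-Vector (0.105) and SKR6 (0.107). The RELA transcript, on its 2 probe sets, differed between SKR6CA and SKR6-Vector by -0.06 (limma, adjusted p = 0.789) and 0.20 (limma, adjusted p = 0.259). Where those probes lie relative to the introduced p65 sequence was not examined, so RELA does not check the label of SKR6CA. Between SKR6LR and SKR6 the RELA differences were 0.37 (limma, adjusted p = 0.00594) and 0.26 (limma, adjusted p = 0.0638). The epithelial markers EPCAM, KRT8, KRT18 and KRT19 and ERBB2, which encodes HER2, lay between 12.39 and 15.02 on every array, whereas CDH1, the epithelial cadherin, lay at 4.14 to 4.41 on every array. The mean of the 7 epithelial and luminal markers was 11.50 to 11.77 in SKR6LR against 11.99 to 12.02 in SKR6, and 12.12 to 12.16 in SKR6CA against 12.08 to 12.10 in SKR6-Vector. ERBB2 averaged 12.45 in SKR6LR and 13.83 in SKR6, its neighbour GRB7 8.88 in SKR6LR and 10.16 in SKR6, and KRT19 13.51 in SKR6LR and 14.45 in SKR6. The part of these shifts in the cytokine differences was not tested.

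Active p65 was set against the empty vector to ask what it changed beyond transduction and selection. TNF rose 6.06-fold in SKR6CA, and it was the single member that differed by more than a doubling. No probe set of IL1A or IL1B passed the test. IL18 and IL1R1 fell by less than a doubling, and 1 of the 2 LTB probe sets rose slightly. In all, 4 of the 15 probe sets were called, 2 higher and 2 lower, against 19.3% of all probe sets called in this comparison (9.14% higher and 10.2% lower). A call is an adjusted p under 0.05 in a limma fit over all 54613 probe sets and all 12 arrays.

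Lapatinib-selected cells were set against their parent to ask what differed after selection. Both IL1 ligands, both chains of the IL1 receptor, TNF, LTA and TNFRSF1B were higher in SKR6LR on at least 1 probe set each. IL18 and TNFRSF1A were lower. Of the 15 probe sets, 12 were called, 10 higher and 2 lower, where the shares over all probe sets were 43.9% called, 19.0% higher and 25.0% lower. Of all calls in this comparison 43.2% were higher, and 53.1% after cyclic loess normalisation. A rise of at least 1 log2 unit was called for 8 member probe sets in SKR6LR and for 1 in SKR6CA. Over all probe sets such rises made up 6.38% in SKR6LR and 0.910% in SKR6CA.

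**Figure D1:**
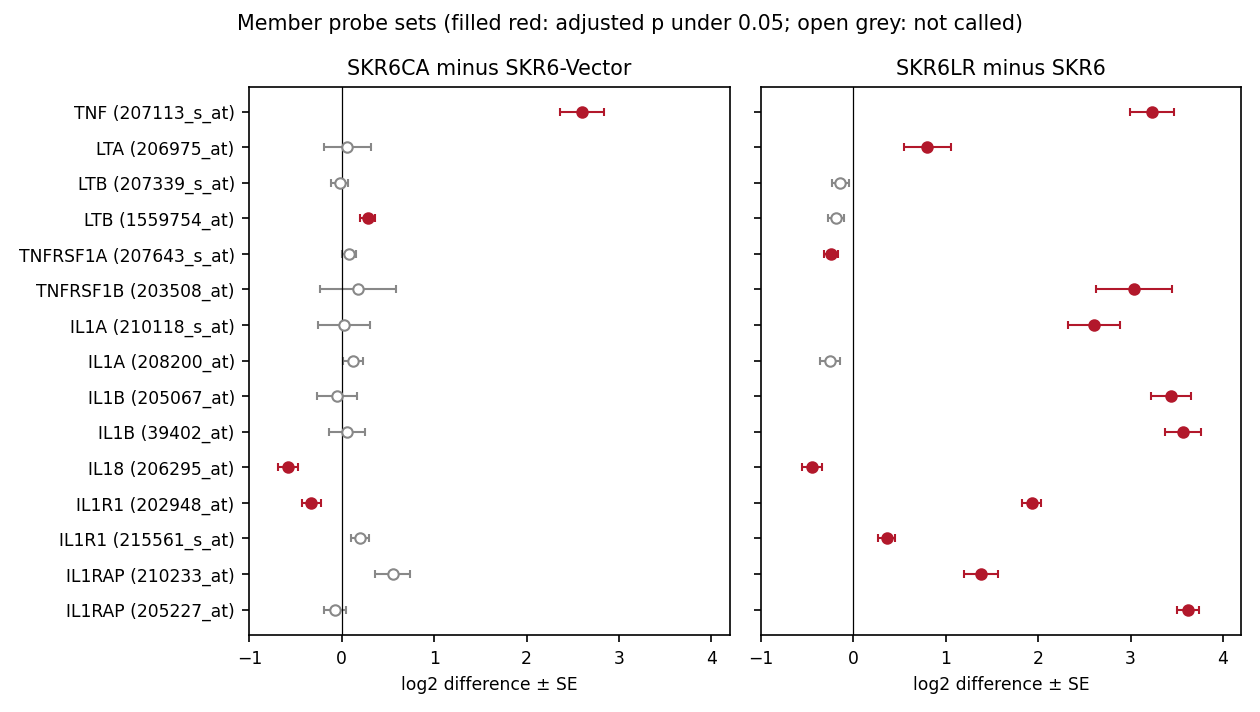
Log2 difference with its SE for the 15 probe sets, SKR6CA minus SKR6-Vector on the left and SKR6LR minus SKR6 on the right, filled where the adjusted p was under 0.05. TNF stands at 2.60 on the left and 3.23 on the right, whereas the IL1A, IL1B and TNFRSF1B points that stand at 2.60 to 3.57 on the right are near 0 on the left.

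TNF, the founding ligand of its family, was measured by 207113_s_at. In SKR6CA it had log2 values of 8.94, 9.07 and 9.05, against 6.54, 6.43 and 6.29 in SKR6-Vector. In SKR6LR it had 8.73, 10.07 and 9.54, against 6.11, 6.33 and 6.21 in SKR6. Every array of SKR6CA and SKR6LR was higher than every array of SKR6-Vector and SKR6, and the SKR6LR values spread around those of SKR6CA. The difference was 2.60 in SKR6CA (SE 0.236, limma adjusted p = 5.49e-06) and 3.23 in SKR6LR (SE 0.236, limma adjusted p = 9.66e-08, 9.38-fold). TNF was the only member called in SKR6CA against both SKR6-Vector and SKR6, with a difference of 2.80 from SKR6 (adjusted p = 4.20e-06). SKR6-Vector differed from SKR6 by 0.20 (adjusted p = 0.669). In bulk RNA, more cells that express a gene and more RNA per cell cannot be told apart.

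LTA encodes lymphotoxin alpha, a secreted ligand that uses the TNF receptors. On 206975_at it had 6.27, 5.93 and 5.92 in SKR6CA, against 5.98, 5.93 and 6.03 in SKR6-Vector, and these arrays overlapped. The difference was 0.06 (SE 0.252, adjusted p = 0.923). In SKR6LR it had 6.21, 7.64 and 6.70, against 6.04, 6.08 and 6.05 in SKR6, so each SKR6LR array was above each SKR6 array, by a wide margin in replicate 2 and narrowly in replicate 1. The rise was 0.80 (SE 0.252, limma adjusted p = 0.0203). Without SKR6LR replicate 2 it was 0.40 (adjusted p = 0.0291), and the call was lost without SKR6 replicate 1 (adjusted p = 0.0521), without SKR6 replicate 3 (adjusted p = 0.0520) and when only the arrays compared were fitted (adjusted p = 0.0797).

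LTB encodes lymphotoxin beta, which anchors lymphotoxin alpha in the membrane and signals through LTBR. Its main probe set 207339_s_at had 6.63, 6.79 and 6.78 in SKR6CA, against 6.79, 6.58 and 6.89 in SKR6-Vector. It had 6.69, 6.94 and 6.73 in SKR6LR, against 6.91, 6.92 and 6.96 in SKR6. Neither pair was separated, with differences of -0.02 (adjusted p = 0.939) and -0.14 (adjusted p = 0.244). The dimmer 1559754_at had 5.54, 5.32 and 5.41 in SKR6CA, against 5.14, 5.04 and 5.25 in SKR6-Vector, a small rise of 0.28 with no overlap (SE 0.084, limma adjusted p = 0.0338). It had 5.16, 5.19 and 4.95 in SKR6LR, against 5.33, 5.30 and 5.26 in SKR6 (difference -0.19, adjusted p = 0.0816). The 2 LTB probe sets therefore disagreed in SKR6CA. The call on 1559754_at was lost without SKR6CA replicate 1 (adjusted p = 0.139), SKR6CA replicate 3 (0.0747), SKR6-Vector replicate 1 (0.0889) or SKR6-Vector replicate 2 (0.142).

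**Figure D2:**
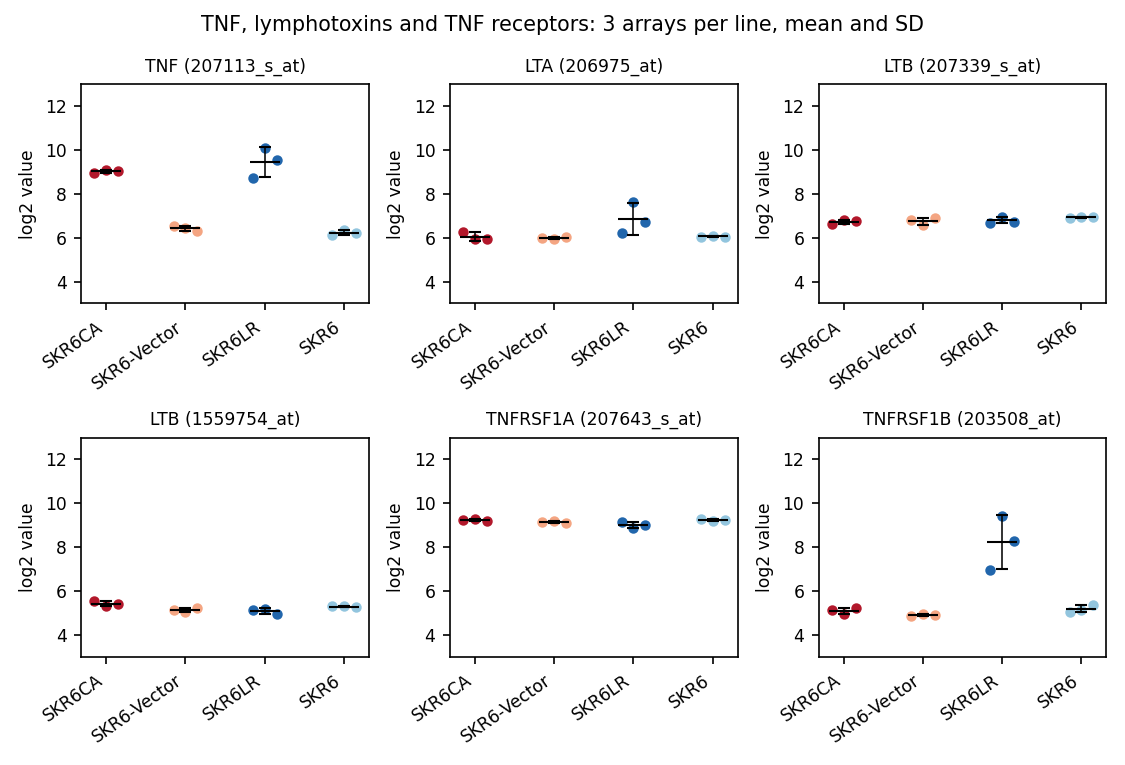
Deposited log2 values of the TNF, LTA, LTB, TNFRSF1A and TNFRSF1B probe sets by line, 1 point per array (3 per line), with the mean and SD as bars. TNF is high in SKR6CA (8.94 to 9.07) and SKR6LR (8.73 to 10.07), and TNFRSF1B is high in SKR6LR alone (6.98 to 9.44).

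TNFRSF1A, the death domain receptor of TNF, was measured by 207643_s_at. It had 9.22, 9.29 and 9.20 in SKR6CA, against 9.16, 9.20 and 9.11 in SKR6-Vector, a difference of 0.08 (adjusted p = 0.583). In SKR6LR it had 9.16, 8.87 and 9.00, against 9.30, 9.21 and 9.22 in SKR6. The SKR6LR arrays were all lower, and the difference was -0.24 (SE 0.075, limma adjusted p = 0.0199). After cyclic loess normalisation the difference was -0.09 (adjusted p = 0.357). The call was also lost without SKR6 replicate 1 (adjusted p = 0.0769), without SKR6LR replicate 2 (0.0727) and when only the arrays compared were fitted (0.0731).

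TNFRSF1B, the receptor without a death domain, rose in SKR6LR and was not called in SKR6CA. On 203508_at it had 5.13, 4.94 and 5.23 in SKR6CA, against 4.86, 4.95 and 4.93 in SKR6-Vector, where the arrays overlapped (difference 0.18, SE 0.412, adjusted p = 0.851). In SKR6LR it had 6.98, 9.44 and 8.28, against 5.06, 5.16 and 5.37 in SKR6. All SKR6LR arrays were higher, and they spread over more than 2 log2 units (SD 1.23). The rise was 3.04 (SE 0.412, limma adjusted p = 3.76e-05), and it ranged from 2.43 to 3.66 when 1 array at a time was left out. The SKR6 values of TNFRSF1B, IL1A and IL1B lay below the array medians and carry no detection call, so their rises are given as log2 differences, with no fold.

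IL1A, the form of IL1 that is active as a precursor and can stay in the cell, was measured by 210118_s_at and 208200_at. The first had 4.23, 4.35 and 4.47 in SKR6CA, against 4.32, 4.54 and 4.11 in SKR6-Vector (difference 0.02, SE 0.281, adjusted p = 0.977). It had 6.14, 7.71 and 7.20 in SKR6LR, against 4.51, 4.28 and 4.44 in SKR6, with all SKR6LR arrays higher. The rise was 2.60 (SE 0.281, limma adjusted p = 4.47e-06). The second probe set lay between 3.63 and 4.13 on all 12 arrays and differed in SKR6LR by -0.25 (adjusted p = 0.0730), so the 2 probe sets of IL1A disagreed.

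IL1B, the secreted form of IL1 that needs cleavage by caspase-1, agreed on its 2 probe sets. On 205067_at it had 5.68, 5.45 and 5.62 in SKR6CA, against 5.79, 5.74 and 5.38 in SKR6-Vector. On the same probe set it had 8.51, 9.60 and 8.76 in SKR6LR, against 5.56, 5.34 and 5.63 in SKR6. The SKR6CA arrays overlapped those of SKR6-Vector, and every SKR6LR array was far above SKR6. The second probe set, 39402_at, had 7.90, 8.88 and 7.97 in SKR6LR, against 4.60, 4.73 and 4.70 in SKR6, and 4.61, 4.60 and 4.70 in SKR6CA, against 4.70, 4.60 and 4.44 in SKR6-Vector. In SKR6LR the rise was 3.44 on the first (SE 0.216, limma adjusted p = 2.18e-08) and 3.57 on the second (SE 0.195, limma adjusted p = 5.23e-09). In SKR6CA the differences were -0.05 (SE 0.216, adjusted p = 0.926) and 0.06 (SE 0.195, adjusted p = 0.905).

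IL18 was the ligand that was lower in both SKR6CA and SKR6LR. On 206295_at it had 7.96, 8.16 and 8.00 in SKR6CA, against 8.63, 8.54 and 8.70 in SKR6-Vector, a fall of 0.58 with no overlap (difference -0.58, SE 0.106, limma adjusted p = 0.00150). In SKR6LR it had 7.44, 7.92 and 7.66, against 8.20, 8.05 and 8.13 in SKR6, with all SKR6LR arrays lower (difference -0.45, SE 0.106, limma adjusted p = 0.00320). It was also the only member called between the controls: SKR6-Vector was higher than SKR6 by 0.49 (SE 0.106, limma adjusted p = 0.00537). Set against SKR6 instead, SKR6CA differed by -0.09 (adjusted p = 0.677) and its arrays overlapped those of SKR6.

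IL1R1, the signalling receptor of IL1, was measured by 202948_at. It had 8.88, 8.93 and 8.87 in SKR6CA, against 9.26, 9.20 and 9.22 in SKR6-Vector, and 10.80, 11.12 and 11.33 in SKR6LR, against 9.19, 9.11 and 9.17 in SKR6. SKR6CA was lowest and SKR6LR highest on every array, and the 2 controls lay close to each other (difference 0.07, adjusted p = 0.754). The rise in SKR6LR was 1.93 (SE 0.104, limma adjusted p = 4.68e-09, 3.81-fold). In SKR6CA the difference was -0.33 (SE 0.104, limma adjusted p = 0.0412). That call was lost in 12 of 23 alternatives, among them the removal of any 1 array of SKR6CA, SKR6-Vector or SKR6 (9 of 12 left-out arrays, highest adjusted p = 0.116), and against SKR6 the difference was -0.26 (adjusted p = 0.115). The dim 215561_s_at had 5.47, 5.47 and 5.66 in SKR6LR, against 5.13, 5.25 and 5.12 in SKR6, and rose by 0.36 (adjusted p = 0.00666). On that probe set SKR6CA had 5.32, 4.97 and 5.02, against 4.85, 4.87 and 4.99 in SKR6-Vector (difference 0.20, adjusted p = 0.202), so the 2 probe sets took opposite signs in SKR6CA.

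IL1RAP, the accessory chain that IL1R1 needs to signal, had 2 bright probe sets. On 205227_at it had 11.82, 12.42 and 12.02 in SKR6LR, against 8.41, 8.52 and 8.48 in SKR6, a rise of 3.62 (SE 0.119, limma adjusted p = 3.39e-11, 12.3-fold). In SKR6CA it had 8.42, 8.55 and 8.42, against 8.58, 8.45 and 8.58 in SKR6-Vector (difference -0.07, adjusted p = 0.779). The 2 groups overlapped in SKR6CA and were far apart in SKR6LR. The other probe set, 210233_at, had 10.30, 11.32 and 10.50 in SKR6LR, against 9.28, 9.28 and 9.41 in SKR6, a rise of 1.38 (SE 0.187, limma adjusted p = 3.71e-05). It had 9.50, 9.54 and 9.44 in SKR6CA, against 8.94, 8.99 and 8.92 in SKR6-Vector, without overlap and with a difference of 0.55 that missed the threshold (SE 0.187, limma adjusted p = 0.0614). That difference was called under 6 of 23 alternatives, among them without SKR6LR replicate 2 (adjusted p = 9.67e-05) (the SE pools the spread over all 4 lines). The 2 probe sets of IL1RAP thus moved by unequal amounts in SKR6LR.

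**Figure D3:**
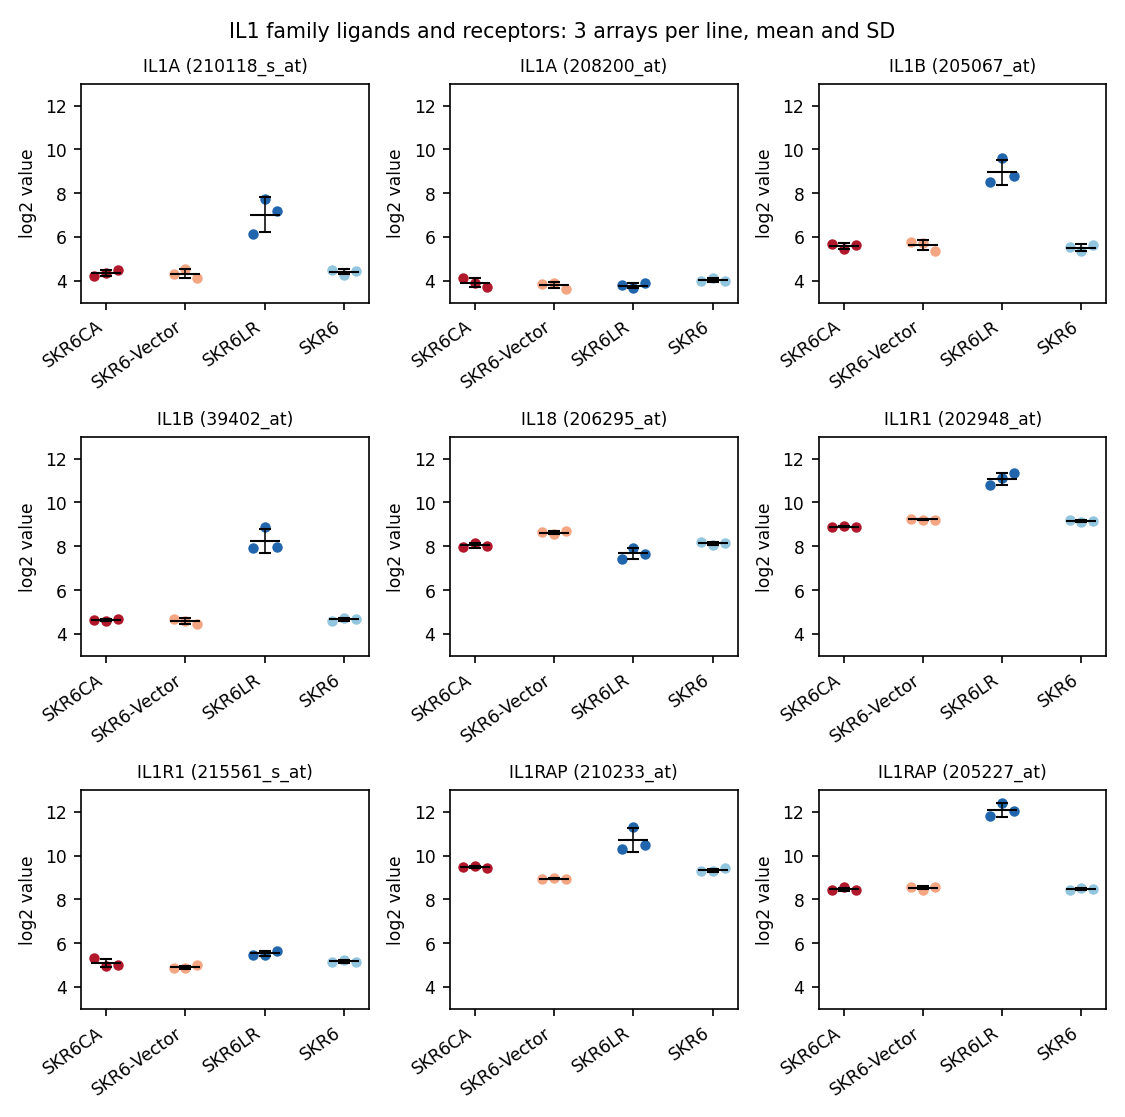
Deposited log2 values of the IL1A, IL1B, IL18, IL1R1 and IL1RAP probe sets by line, 1 point per array (3 per line), with the mean and SD as bars. IL1B on 205067_at stands at 8.51 to 9.60 in SKR6LR and at 5.34 to 5.79 in the other lines, and IL18 is highest in SKR6-Vector (8.54 to 8.70).

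The difference between the effects, SKR6LR minus SKR6 less SKR6CA minus SKR6-Vector, was tested in the same fit, and no array entered both effects. It was called for 9 of the 15 probe sets, 7 higher and 2 lower, against 36.2% of all probe sets (16.0% higher and 20.1% lower). Of all calls in that test 44.4% were higher, and 54.7% after cyclic loess normalisation. The effect was larger in SKR6LR for IL1B (3.49 on 205067_at, adjusted p = 9.69e-07), IL1A on 210118_s_at (2.58, adjusted p = 1.66e-04), TNFRSF1B (2.86, adjusted p = 0.00155) and IL1R1 on 202948_at (2.26, adjusted p = 5.45e-08). For IL1RAP it was larger by 3.69 on 205227_at (adjusted p = 1.74e-09) and by 0.84 on 210233_at (adjusted p = 0.0244), and the value on 210233_at was 0.53 without SKR6LR replicate 2 and missed the threshold without SKR6 replicate 1 or 2, SKR6-Vector replicate 2 or SKR6CA replicate 3 (highest adjusted p = 0.0517). For TNF the effects differed by 0.63 (SE 0.333, limma adjusted p = 0.171). That value was 0.99 (adjusted p = 7.57e-04) without SKR6LR replicate 1, which had the lowest TNF value of its line, and 0.32 (adjusted p = 0.352) without replicate 2, which had the highest. For LTA they differed by 0.73 (SE 0.356, adjusted p = 0.135), by 1.06 without SKR6LR replicate 1 (adjusted p = 0.00769) and by 0.34 without replicate 2 (adjusted p = 0.172). For IL18 they differed by 0.13 (SE 0.150, adjusted p = 0.561). On the dimmer probe sets of IL1A (208200_at) and IL1R1 (215561_s_at) no larger effect in SKR6LR was called. There the effects differed by -0.38 (limma, adjusted p = 0.0714) and 0.17 (limma, adjusted p = 0.381). The lower calls were LTB on 1559754_at (-0.47, adjusted p = 0.00660) and TNFRSF1A (-0.31, adjusted p = 0.0330), and the TNFRSF1A call was lost for 8 of 12 left-out arrays (SKR6CA replicates 1 and 2, SKR6LR replicates 2 and 3, SKR6-Vector replicates 1 and 3 and SKR6 replicates 1 and 3).

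Between SKR6-Vector and SKR6 only IL18 was called, 1 of 15 probe sets against 17.2% of all (8.29% higher and 8.94% lower). The arrays of these 2 lines nevertheless did not overlap for 10 of the 15 probe sets, 2 higher and 8 lower in SKR6-Vector, where 39.6% of all probe sets did not overlap. Only TNF was called between SKR6CA and SKR6, again 1 of 15, against 16.6% of all (7.47% higher and 9.18% lower). Arrays did not overlap for 5 of 15 probe sets in SKR6CA against SKR6-Vector, where 38.1% of all probe sets did not overlap. They did not overlap for 14 of 15 in SKR6LR against SKR6, where the share of all was 51.2%, the exception being LTB on 207339_s_at. The median difference of the 15 probe sets was 0.06 in SKR6CA and 1.38 in SKR6LR, beside 0.011 and -0.045 over all probe sets.

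The 3 SKR6LR replicates differed from each other in the same way for most of these genes. Over the 8 member probe sets whose line means spanned at least 1 log2 unit, SKR6LR replicate 1 was the lowest of its line in 8 and replicate 2 the highest in 7, with IL1R1 the exception. Over the 3486 probe sets higher in SKR6LR by at least 1, replicate 1 was the lowest in 53.2% and replicate 2 the highest in 52.1%. On the actin controls, the 3′ probe set exceeded the 5′ one, a gap that grows as RNA is shortened, by 1.19, 1.03 and 2.32 in SKR6LR replicates 1, 2 and 3, and for GAPDH the gap was 0.16, 0.23 and 0.51. In the other lines it was 1.19 to 1.73 for actin and 0.12 to 0.19 for GAPDH. Replicate 3, which stood apart on the control probes, was the highest in 1 of the 8 member probe sets (IL1R1 on 202948_at, 11.33) and the lowest in 0. Outside the 8, replicate 3 was the highest of its line for IL1R1 on 215561_s_at (5.66) and IL1A on 208200_at (3.88). It was the lowest for LTB on 1559754_at (4.95). The part of RNA quality in the replicate spread was not tested.

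**Figure D4:**
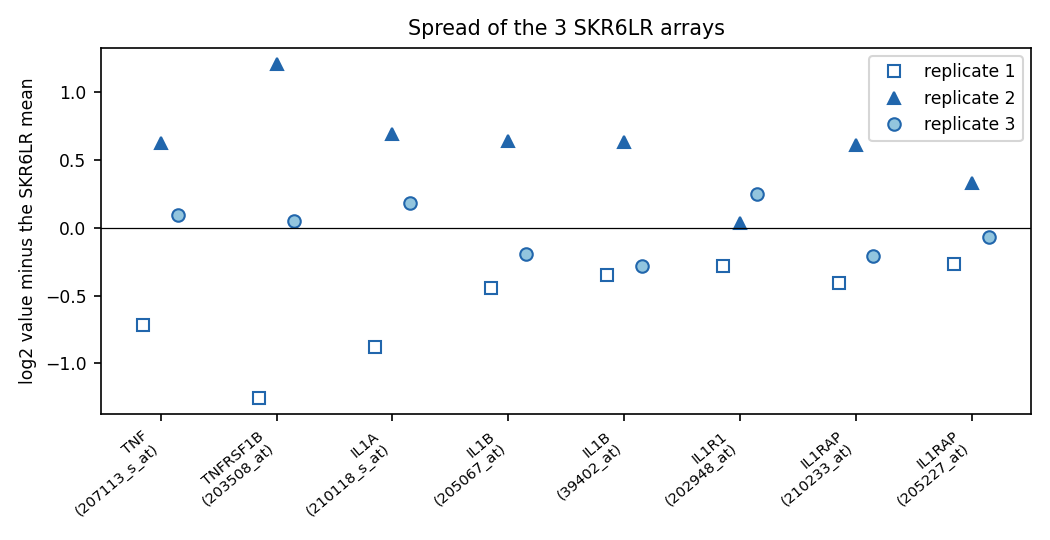
Log2 value of each SKR6LR replicate minus the SKR6LR mean, for the 8 probe sets whose line means spanned at least 1 log2 unit. Open squares (replicate 1) are the lowest in all 8 and triangles (replicate 2) the highest in all but IL1R1.

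Because TNF, IL1B and TNFRSF1B are well known from macrophages and endothelium, markers of those cells were read beside them. Of the macrophage markers, 4 of 5 were measured, and their mean was 5.99 to 6.16 in SKR6LR arrays against 4.90 to 5.12 in SKR6, and 5.24 to 5.40 in SKR6CA against 5.16 to 5.31 in SKR6-Vector. CD14 averaged 6.73 in SKR6LR and 5.02 in SKR6, and CSF1R 8.12 in SKR6LR and 5.80 in SKR6. LYZ (3.70 to 3.96) and ITGAM (5.33 to 5.84) stayed within narrow ranges over all arrays. The leukocyte markers, 5 of 6 measured, had a mean of 4.78 to 4.84 in SKR6LR and 4.80 to 4.85 in SKR6, and PTPRC, which encodes the pan-leukocyte antigen CD45, lay at 3.92 to 4.30 on all arrays. The endothelial markers, 4 of 4 measured, averaged 6.35 to 6.43 in SKR6LR against 5.23 to 5.33 in SKR6, and 5.93 to 6.04 in SKR6CA against 5.81 to 6.06 in SKR6-Vector. CDH5 averaged 8.98 in SKR6LR and 5.14 in SKR6, and 8.22 in SKR6CA and 8.10 in SKR6-Vector, while KDR lay at 3.67 to 4.10 on all arrays. The part of other cell types in the cytokine differences was not tested.

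Genes that work with these ligands were read from 4 lists, with 1 probe set per gene. In SKR6CA 10.6% of all 19775 genes were higher and 13.8% lower, and in SKR6LR 20.8% were higher and 29.8% lower. Of the TNF and lymphotoxin receptor signalling list, 19 of 22 genes were measured. In SKR6CA 3 of them were higher and 2 lower (median 0.05, against 0.003 over all genes), and in SKR6LR 8 were higher and 4 lower (median 0.24, against -0.058 over all genes). TNFAIP3, the A20 enzyme that ends NF-kB signalling, rose in both SKR6CA (10.69, against 7.85 in SKR6-Vector, difference 2.84, adjusted p = 1.76e-05) and SKR6LR (11.55, against 7.98 in SKR6, difference 3.57, adjusted p = 3.12e-07). LTBR, the lymphotoxin beta receptor, rose by 0.73 in SKR6CA (adjusted p = 6.61e-05), and by 0.34 against SKR6 (adjusted p = 0.0171), with SKR6-Vector below SKR6 (difference -0.38, adjusted p = 0.00844). In SKR6LR LTBR was lower, at 9.49 against 9.74 in SKR6 (limma, difference -0.24, adjusted p = 0.0412). CASP8, the caspase started by death receptors, had a difference of -0.72 in SKR6CA against SKR6-Vector (adjusted p = 7.30e-05). Against SKR6, CASP8 differed by -0.06 in SKR6CA (adjusted p = 0.766) and was higher by 0.67 in SKR6-Vector (adjusted p = 1.61e-04). CFLAR, which blocks CASP8, rose by 0.57 in SKR6CA (adjusted p = 0.0303), a call lost when any 1 of the 6 SKR6CA or SKR6-Vector arrays was left out. Against SKR6 the SKR6CA difference of CFLAR was 0.44 and was not called (limma, adjusted p = 0.102). In SKR6LR CFLAR rose by 1.55 (adjusted p = 4.63e-06). Beside LTBR, the genes lower in SKR6LR were CYLD (-0.73, limma adjusted p = 0.00354), OTULIN (-0.62, limma adjusted p = 4.52e-06) and SHARPIN (-0.25, limma adjusted p = 0.0120). OTULIN was also lower than in SKR6 in SKR6CA (-0.70, limma adjusted p = 1.25e-05) and in SKR6-Vector (-0.54, limma adjusted p = 8.19e-05). TRAF5, an adaptor of TNF family receptors, averaged 10.48 in SKR6LR against 4.80 in SKR6 (difference 5.68, adjusted p = 3.76e-13). In SKR6CA TRAF5 averaged 4.50, against 5.07 in SKR6-Vector (limma, difference -0.56, adjusted p = 0.00384). Against SKR6 the SKR6CA difference was -0.30 (limma, adjusted p = 0.111), and the means of SKR6CA, SKR6-Vector and SKR6 all lay below the array medians. TIMP3, an inhibitor of the TNF-shedding protease ADAM17, averaged 11.54 in SKR6LR against 7.20 in SKR6 (difference 4.35, adjusted p = 3.38e-14). ADAM17 itself was also higher in SKR6LR, at 10.98 against 9.83 in SKR6 (limma, difference 1.15, adjusted p = 3.48e-09). In SKR6CA ADAM17 differed from SKR6-Vector by 0.11 (limma, adjusted p = 0.271). Shedding of TNF was not measured.

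The other IL1 family ligands, receptors and antagonists were all measured, 17 of 17. In SKR6CA the single call was a lower one (median 0.02), and in SKR6LR 3 were higher and 1 lower (median -0.07). IL1R2, the decoy receptor that binds IL1 without signalling, fell in SKR6CA (4.82, against 5.49 in SKR6-Vector, difference -0.68, adjusted p = 0.00159) and rose in SKR6LR (6.91, against 5.22 in SKR6, difference 1.69, adjusted p = 1.02e-07). Against SKR6 the SKR6CA difference of IL1R2 was -0.40 (limma, adjusted p = 0.0418). IL36RN, which encodes the antagonist of the IL36 receptor, rose by 1.88 in SKR6LR (adjusted p = 4.28e-05) and the ligand IL36G by 0.67 (adjusted p = 4.43e-04). The means of IL1R2 in SKR6CA, SKR6-Vector and SKR6, of IL36RN in SKR6 and of IL36G in SKR6LR and SKR6 lay below the array medians. They carry no detection call. SIGIRR, a receptor that dampens IL1 signalling, had a difference of -1.21 in SKR6LR (adjusted p = 2.61e-07).

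Of the IL1 receptor signalling list, 14 of 15 genes were measured. In SKR6CA 1 was higher and 1 lower (median 0.09), and in SKR6LR 6 were higher and 2 lower (median 0.15). In SKR6CA TAB2, a partner of the kinase MAP3K7, rose by 0.36 (adjusted p = 0.00187) and the kinase MAP3K3 had a difference of -0.38 (adjusted p = 0.00320). The 2 lower genes in SKR6LR were these same genes, TAB2 at -0.50 (limma, adjusted p = 3.21e-05) and MAP3K3 at -1.10 (limma, adjusted p = 6.03e-08). In SKR6LR the ubiquitin ligase PELI1 averaged 10.45 against 7.38 in SKR6 (difference 3.06, adjusted p = 2.62e-10). NFKBIZ, a nuclear cofactor of NF-kB induced by IL1, averaged 10.94 in SKR6LR against 7.96 in SKR6 (difference 2.98, adjusted p = 2.51e-08). NFKBIZ was also higher than in SKR6 in the other lines, at 9.98 in SKR6CA (difference 2.02, adjusted p = 1.12e-05) and 9.90 in SKR6-Vector (difference 1.94, adjusted p = 1.19e-05). IRAK2, a kinase of the receptor complex, rose by 1.43 (adjusted p = 0.00160), or 0.95 without SKR6LR replicate 2, and TAB3 by 1.23 (adjusted p = 9.23e-06). TAB3 was likewise higher than in SKR6 in SKR6CA (0.71, adjusted p = 0.00400) and in SKR6-Vector (0.55, adjusted p = 0.0170).

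Of the inflammasome and IL1 processing list, 17 of 17 were measured. In SKR6CA 1 was higher and 3 lower (median 0.02), and in SKR6LR 5 were higher and 6 lower (median -0.02). SERPINB1, an inhibitor of neutrophil proteases and of inflammatory caspases, rose by 2.25 in SKR6LR (9.72, against 7.47 in SKR6, adjusted p = 8.77e-11) and CASP4, a caspase that senses intracellular endotoxin, by 1.47 (adjusted p = 4.36e-04). The inflammasome sensor NLRP1 rose by 1.35 in SKR6LR (adjusted p = 4.67e-05), whereas CARD8, a related sensor, averaged 5.76 in SKR6LR against 7.84 in SKR6 (difference -2.08, adjusted p = 2.24e-08). In SKR6CA all 4 called differences were under 0.5: CAST, the calpain inhibitor, at -0.48 (adjusted p = 0.0317), CARD8 at -0.41 (0.0444), SERPINB1 at 0.27 (0.0322) and CAPN2, a protease of the calpain family that cuts the IL1A precursor, at -0.27 (0.0110). The CAST, CARD8 and SERPINB1 calls in SKR6CA were lost when any 1 of the 6 SKR6CA or SKR6-Vector arrays was left out, and the CARD8 call also without any 1 SKR6 array or SKR6LR replicate 3. The CAPN2 call held in each of these, but against SKR6 CAPN2 was higher in SKR6CA (difference 0.27, adjusted p = 0.0117) and in SKR6-Vector (0.54, adjusted p = 7.48e-05). CAST differed from SKR6 by -0.04 in SKR6CA (adjusted p = 0.899). CARD8 and SERPINB1 were called in SKR6CA against SKR6 too, with the same signs, at -0.56 (limma, adjusted p = 0.00976) and 0.35 (limma, adjusted p = 0.00952).

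**Figure D5:**
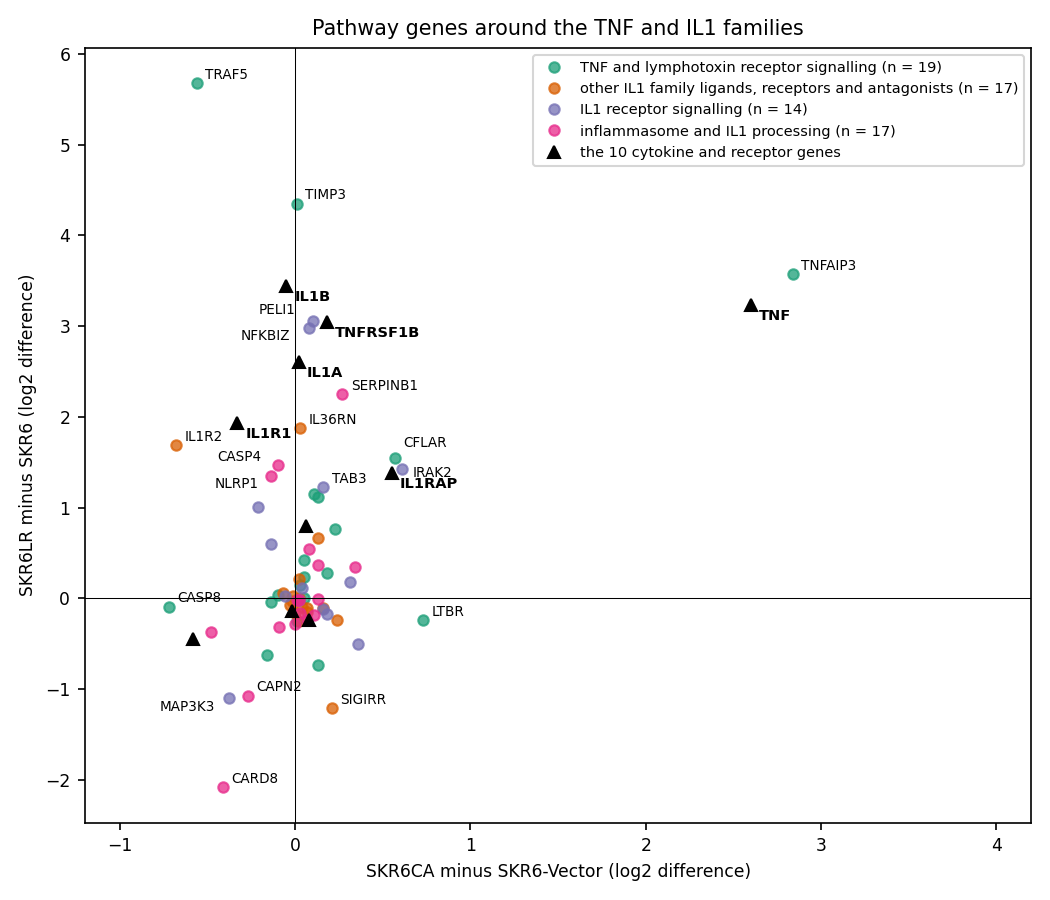
Log2 difference SKR6LR minus SKR6 (vertical) against SKR6CA minus SKR6-Vector (horizontal) for the measured genes of the 4 lists (circles) and the 10 cytokine and receptor genes (triangles), 1 probe set per gene. TNF and TNFAIP3 stand alone on the right at 2.60 and 2.84, and IL1A, IL1B, TNFRSF1B, TRAF5, TIMP3, PELI1 and NFKBIZ rise along the left side.

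The genes whose values followed a ligand or receptor most closely over the 12 arrays were looked up. The search covered 4005 genes with line means that spanned at least 1 log2 unit. A member was looked up only if its brighter probe set passed the same limit, which left out LTA, LTB, TNFRSF1A and IL18. The points share lines and arrays, so the correlations describe these arrays. TNF was most like TRIB1 (Pearson r 0.990), TNFAIP3 (0.990) and CCNL1 (0.985). TNFRSF1B was most like IL36RN (0.996), UNC5CL (0.992) and HLA-B (0.992), and IL1A was most like ADTRP (0.997), FCRLB (0.994) and IFIT3 (0.994). IL1B was most like PHLDA3 (0.996), KLK7 (0.996) and LYN (0.994), and IL1R1 was most like FUT4 (0.998), S100A7 (0.995) and EXPH5 (0.995). IL1RAP on 210233_at was most like MKNK1 (0.985), CFLAR (0.985) and GADD45A (0.982).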

How the data were processed

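Labelled cRNA was made from total RNA by T7 amplification from an oligo-dT primer, per the labels' protocols. The deposited values are log2 values, and the submitters' processing notes name RMA and limma without versions. RMA makes a level relative to the other arrays and compresses small differences near background, and low values carry no detection call. Gene names came from the 2016 platform annotation, updated by gene ID with RefSeq (GRCh38.p14), and no probe set named a member together with another gene.

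One limma fit (limma 3.58.1, R 4.3.3) with a mean per line covered all 54613 probe sets that are not array controls, without a filter. Adjustment was by Benjamini and Hochberg across all of these, and the fit was tested on simulated data. In the simulation every line had the same spread and only SKR6CA was changed, so the wider spread of SKR6LR was not covered. The alternatives were a replicate block, each array left out, cyclic loess, median centring, array weights, 1 weight per line, a mean-variance trend with robust fitting, only the arrays compared, a filter on low values, 1 probe set per gene, no _x_at or _s_at probe sets, and a stricter threshold. The labels call the replicates biological but do not say how cultures were separated, so p-values measure the spread between these samples, which may be technical.

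The members, the 4 gene lists and the marker lists were chosen with earlier results of these data known. Named list genes are up to 4 called genes per list and comparison with the largest differences, each by the probe set with its highest mean. TRAF5 in SKR6CA, ADAM17, CYLD, OTULIN and SHARPIN, and LTBR, TAB2 and MAP3K3 in SKR6LR, were named after their values were seen. The genes most like a member are the 3 with the highest Pearson correlation.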

Additional observations from a re-analysis of the deposited data

How the results depend on the processing

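Of 27 called member differences, 21 kept their call under every alternative run and 6 lost it under at least 1; of 48 that were not called, 10 were called under at least 1. TNF kept its call in SKR6CA and SKR6LR under the 22 alternatives that hold its probe set, at 2.53 to 2.66 and 2.92 to 3.59. The numbers did not pair the samples: over 18 pairs of same-numbered replicates the correlations of their deviations ran from -0.10 to 0.08, with 0 over 0.1. With the replicate block, IL1R1 on 202948_at in SKR6CA missed the threshold (adjusted p = 0.0534), which left 1 member probe set called lower there in place of 2, and no other call of the members changed. Over all probe sets the block gave 10108 calls in SKR6CA and 23649 in SKR6LR. With 1 array left out, the members called higher numbered 1 to 3 in SKR6CA against SKR6-Vector (2 with all arrays), 9 to 10 in SKR6LR against SKR6 (10), 1 to 1 in SKR6-Vector against SKR6 (1), 1 to 1 in SKR6CA against SKR6 (1) and 6 to 9 for the difference between the effects (7). Those called lower numbered 1 to 2 (2), 1 to 3 (2), 0 to 1 (0), 0 to 1 (0) and 1 to 3 (2), in the same order. At an unadjusted p under 0.05, limma gave 2 lower in SKR6-Vector and 1 in SKR6CA against SKR6, where 0 passed after adjustment. Cyclic loess gave 1 lower in place of 2 in SKR6CA against SKR6-Vector, in SKR6LR against SKR6 and for the difference. Array weights and 1 weight per line gave 2 lower in SKR6-Vector and 1 in SKR6CA, both against SKR6, in place of 0, and only the arrays compared gave 3 and 1 there and 1 in SKR6LR in place of 2. One probe set per gene gave 1 higher in SKR6CA against SKR6-Vector in place of 2. Without _x_at and _s_at probe sets, which removes the TNF probe set, it was also 1, with 0 higher in SKR6CA against SKR6 in place of 1 and 1 lower in SKR6LR in place of 2. An adjusted p under 0.01 gave 1 higher and 1 lower in SKR6CA and 1 lower in SKR6LR. The cause was not tested, except where fewer probe sets or a stricter threshold made the change.

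Signs turned in 23 of the values recomputed, all of uncalled differences near 0 and 20 of them with 1 array left out. In SKR6CA against SKR6-Vector these were LTA (-0.05 to 0.12), LTB on 207339_s_at (-0.11 to 0.05), IL1A on 210118_s_at (-0.08 to 0.13) and IL1B (-0.18 to 0.03 on 205067_at, -0.01 to 0.12 on 39402_at). In SKR6CA against SKR6 they were LTA (-0.13 to 0.05), TNFRSF1A (-0.04 to 0.02), IL1B on 205067_at (-0.01 to 0.14), IL1R1 on 215561_s_at (-0.17 to 0.00) and IL1RAP on 205227_at (-0.05 to 0.02), and in SKR6-Vector against SKR6, IL1A on 210118_s_at (-0.20 to 0.02). Cyclic loess turned TNFRSF1A (0.03) and IL1RAP on 205227_at (0.04) in SKR6CA against SKR6, and array weights the second of them (0.01).

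Over all probe sets, 10566 calls in SKR6CA against SKR6-Vector became 6935 at an adjusted p under 0.01, 5251 with 1 probe set per gene and 6691 without _x_at and _s_at. In SKR6LR against SKR6, 24001 became 10345 and 15473 under the same 2 settings. In SKR6-Vector against SKR6, 9415 became 14457 with array weights, 14344 with 1 weight per line, 5888 at 0.01, 5073 with 1 probe set per gene and 5697 without _x_at and _s_at. In SKR6CA against SKR6, 9089 became 5293, 4810 and 5768 under the last 3. List counts moved too. In SKR6CA the TNF and lymphotoxin receptor signalling list, called higher, ran from 2 to 3 with 1 array left out and from 1 to 4 under other settings (3 in the fit reported), the IL1 receptor signalling list, called higher, from 1 to 3 and 0 to 3 (1), and the inflammasome list, called lower, from 1 to 3 and 0 to 3 (3). In SKR6LR the TNF and lymphotoxin receptor signalling list, called higher, ran from 8 to 10 and 5 to 11 (8), the IL1 receptor signalling list, called higher, from 6 to 7 and 4 to 8 (6), the other IL1 family list, called higher, from 3 to 3 and 1 to 3 (3), and the inflammasome list from 4 to 5 and 2 to 6 called higher (5) and from 4 to 5 and 3 to 6 called lower (6). After cyclic loess the higher share of all calls was 55.4% in SKR6-Vector (48.1% without it) and 51.1% in SKR6CA (44.9%), both against SKR6.

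With 3 arrays per line, the SEs of TNFRSF1B, IL1A and LTA are wide, and for the dim probe sets of IL1A, LTB and IL1R1 the nearness to background limits any difference. The p-values rest on a spread pooled over lines, of which SKR6LR varied most.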
